A study of Mus musculus with 12 samples.

Results

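The genes of the mouse Fc gamma receptors, Fcgr1, Fcgr2b, Fcgr3 and Fcgr4, and of Fcer1g, the signalling chain of the activating ones, were followed through 12 RNA-seq libraries of RAW264.7 cells, a macrophage-like mouse line. The 5 genes were picked by symbol from 32688 genes in the count table, and all 5 passed the filter on low counts that left 18066 genes to test. Null cells (WT in the study's text) were compared with DKO cells, in which the transcription factor genes Tfeb and Tfe3 had been targeted by CRISPR. Each genotype was kept as a control, untreated by its labels and given DMSO by the study's methods, or was exposed to 100 µM etoposide, a topoisomerase II poison that breaks DNA, for 8 h. The 4 groups of Null control, Null etoposide, DKO control and DKO etoposide held 3 libraries each. Each genotype was 1 cell line, so that the loss of both factors and any other difference between the lines cannot be told apart, and since no label ties the libraries to separate cultures, although the study calls its etoposide-treated samples independent, p-values measure only the spread between these libraries, which may be technical.

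Fc gamma receptors bind the constant part of IgG and let a macrophage take up antibody-coated particles. Fcgr1, the high-affinity receptor, Fcgr3 and Fcgr4 are activating: they signal through Fcer1g, a small chain with an immunoreceptor tyrosine-based activation motif that is phosphorylated by Src family kinases and then bound by the kinase Syk, and they need it to reach the cell surface. Fcgr2b carries an inhibitory motif in its own tail and recruits the lipid phosphatase SHIP1, encoded by Inpp5d, so that the balance of activating and inhibitory receptors sets the threshold of the response.

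The libraries held 29837255 to 61809316 counts, of which mitochondrial genes took 19.4% to 21.7% in Null etoposide and 14.1% to 18.3% in all other libraries. Tfeb was at a mean of 16.8 CPM (counts in a library scaled to 1000000) in Null control and 7.56 in Null etoposide libraries, against 4.40 and 4.34 CPM in the DKO groups. Tfe3 was at 37.8 and 37.7 CPM in the DKO groups against 104.5 and 101.3 in the Null groups, so that both transcripts were reduced and neither was lost. All other labels name RAW264.7 cells alone, but the titles of the DKO etoposide libraries name both RAW264.7 cells and fibroblasts (MEFs), and leave out the word DKO. Their 8 macrophage markers summed to 5664 to 6264 CPM, above the 4372 to 5341 CPM of the other groups, and their 8 fibroblast markers to no more than 1.20 CPM. Cd14 was at a mean of 1286 CPM in these libraries and 309.4 to 516.9 CPM in the other groups. Without Cd14 the other 7 markers summed to 4579 to 4770 CPM, against 4765 to 5058 CPM in Null control, 4277 to 4509 in Null etoposide and 4164 to 4316 in DKO control libraries. The part of these markers in the results was not tested. Summed markers of B cells stayed at or below 3.62 CPM in all 12 libraries, those of mast cells at or below 0.303, of NK cells at or below 0.127 and of neutrophils at or below 0.227. Replicates were not equally alike. Relative to counting noise, the squared difference between 2 libraries of a group had a median of 3.40 to 5.34 in Null etoposide and reached 36.6 in Null control and 53.6 in DKO control cells, where replicate 1 differed from both others (45.8 and 53.6, against 6.40 between replicates 2 and 3). Where leaving out that library changed a call or a direction of the 5 genes, the value is given beside the result.

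In the mm10 (GRCm38) build with GENCODE M21 gene models, 4 of the 5 genes lie together on chromosome 1: Fcgr2b at chr1:170958617-170976547 (minus strand), Fcgr4 at chr1:171018920-171029761 (plus strand), Fcgr3 at chr1:171051174-171064935 (minus strand) and Fcer1g at chr1:171229572-171234365 (minus strand). Fcgr1 lies apart, at chr3:96282909-96293969 (minus strand). Fcgr2b and Fcgr3 share near-identical stretches, and 94 of the 1733 windows of 75 bases in Fcgr3 exons (5.42%) also occur in Fcgr2b, so that single reads of that length from these stretches have no unique place. Of 5768 such windows in Fcgr2b, 313 (5.43%) also occur in other genes, among them Cplx2, Gm47409, Rab3c and Gm38204 as well as Fcgr3. Fcgr1, Fcgr4 and Fcer1g shared no such window with another gene. An antisense gene, Gm38204, overlaps 155 bases of Fcgr2b exons. If Gm38204 reads were spread evenly over its own exons, those on the shared bases would equal 0.466% of Fcgr2b counts.

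The 250 bases upstream of the RefSeq start (GRCm38.p6) are shown for the 3 activating receptors, the genes of the 5 whose windows held the letters marked. In each, capitals mark GAGGAA or its complement TTCCTC, the core letters that PU.1, the product of Spi1, can bind. These letters were chosen after the promoters were read, so that setting the matches against the share of all windows is not a test.
Fcgr1 (chr3:96293970-96294219, minus strand): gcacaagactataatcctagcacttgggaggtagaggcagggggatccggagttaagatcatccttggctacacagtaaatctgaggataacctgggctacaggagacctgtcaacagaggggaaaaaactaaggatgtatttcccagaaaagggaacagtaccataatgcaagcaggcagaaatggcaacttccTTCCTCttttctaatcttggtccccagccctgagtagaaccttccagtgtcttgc
Fcgr3 (chr1:171059404-171059653, minus strand): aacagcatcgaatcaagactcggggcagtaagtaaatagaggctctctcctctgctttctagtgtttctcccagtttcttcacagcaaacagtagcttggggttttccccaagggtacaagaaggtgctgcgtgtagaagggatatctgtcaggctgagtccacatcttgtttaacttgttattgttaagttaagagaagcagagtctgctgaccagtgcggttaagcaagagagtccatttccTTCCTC
Fcgr4 (chr1:171018676-171018925, plus strand): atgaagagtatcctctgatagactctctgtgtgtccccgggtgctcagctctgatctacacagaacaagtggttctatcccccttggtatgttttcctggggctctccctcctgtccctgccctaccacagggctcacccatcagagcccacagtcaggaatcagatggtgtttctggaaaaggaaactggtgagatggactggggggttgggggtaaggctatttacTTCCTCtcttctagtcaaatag
The window of Fcgr1 held these letters at bases -55 to -50, counted back from the start, that of Fcgr3 at -6 to -1 and that of Fcgr4 at -22 to -17. Those of Fcgr2b and Fcer1g, searched on both strands in the same way, did not hold them. GAGGAA or TTCCTC occurred in 23.3% of the 250-base windows of all 32851 RefSeq starts. The E-box CACGTG (6.02% of windows) and the letters TCATGTG (3.25%), both of which factors of the TFEB and TFE3 family can bind, were in none of the 5 genes' windows. Such matches are letters, not known binding sites. GENCODE exons cover 27 bases of the Fcgr3 window and 6 bases of the Fcgr4 window, and most of the Fcgr2b window, which is not shown.

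After etoposide, mRNA of all 4 receptors was lower in DKO than in Null cells, by 7.21 times for Fcgr1, 9.61 times for Fcgr2b, 6.60 times for Fcgr3 and 1.93 times for Fcgr4 (ratios of mean CPM), and that of the chain Fcer1g was at 82.1 against 79.5 CPM. In limma, with Benjamini-Hochberg adjustment over all 18066 genes and a threshold of 0.05, the 4 receptors were called lower and Fcer1g was not called, where 17.8% of all genes tested were called lower, 15.9% higher and 33.6% in either direction. Without etoposide, Fcgr1, Fcgr2b and Fcgr3 were already lower in DKO cells, 3 of the 5 genes, where 8.39% of all genes were called lower, 10.9% higher and 19.3% in either direction. The Null etoposide libraries in this comparison also had the highest mitochondrial shares (19.4% to 21.7%, against 17.0% to 18.1% in DKO etoposide), whose part in the result was not tested. In these bulk libraries, fewer receptor-expressing cells and less receptor RNA per cell cannot be told apart.

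Etoposide itself moved the receptors in opposite directions. In Null cells Fcgr3, Fcgr4 and Fcgr2b rose (3 of 5, with 20.9% of all genes called higher) and Fcgr1 fell (1 of 5, with 18.7% called lower and 39.6% in either direction). In DKO cells Fcgr4 rose (1 of 5, with 20.2% of all genes called higher), and Fcgr1 and Fcgr2b fell (2 of 5, with 19.1% called lower and 39.3% in either direction). The difference between the responses, tested as an interaction, was called for Fcgr1, Fcgr2b and Fcgr3, each lower in DKO cells than the Null response (3 of 5), where 6.39% of all genes were called in that direction, 3.07% in the other and 9.45% in either. The comparisons share groups of libraries and are not independent of each other. The median log2 difference of all genes tested lay between -0.01 and 0.03 in the 5 comparisons.

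**Figure D1:**
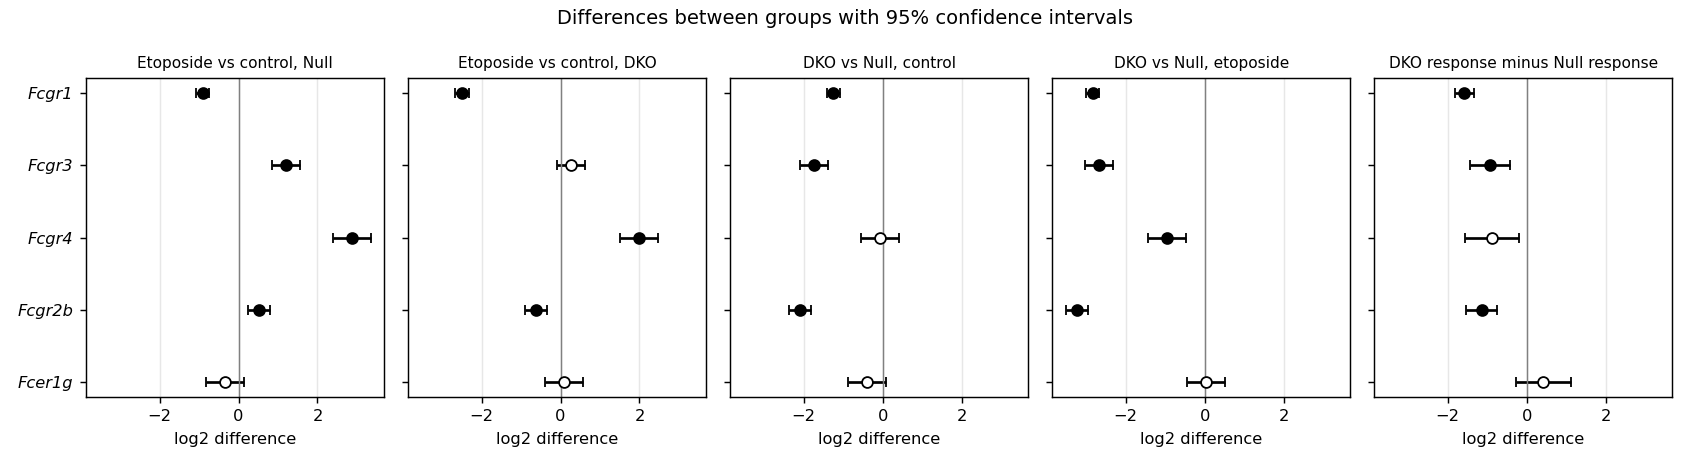
Log2 differences between groups (horizontal axes) for the 5 genes in the 5 comparisons, with 95% confidence intervals from limma; filled points have an adjusted p under 0.05. The 4 receptors lie left of 0 in DKO against Null cells after etoposide, and the intervals of Fcer1g cross 0 in every panel.

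Fcgr1, the high-affinity receptor, was the most abundant receptor transcript per length in Null control libraries, where it was at 66.9, 74.3 and 67.2 CPM. It was at 37.3, 37.3 and 36.3 CPM in the Null etoposide group, 28.5, 30.4 and 28.4 CPM in the DKO controls, and 5.23, 5.42 and 4.72 CPM in the DKO group given etoposide. The 4 groups did not overlap, and Null control stood highest and DKO etoposide lowest. Etoposide lowered Fcgr1 by 0.91 on the log2 scale in Null cells, where the difference was -0.91 ± 0.08 (SE; limma, adjusted p = 1.79e-06), and more in DKO cells, where it was -2.49 ± 0.08 (adjusted p = 1.20e-10). The DKO response exceeded the Null response by a log2 difference of -1.59 (95% confidence interval -1.82 to -1.35, limma, adjusted p = 1.00e-06). DKO cells had less Fcgr1 than Null cells as controls (log2 difference -1.25, adjusted p = 1.60e-07) and after etoposide (-2.84, adjusted p = 7.25e-11, both limma). On the per-length scale, Fcgr1 went from the 90.3rd percentile of all genes tested in Null control cells to the 41.6th in DKO etoposide cells.

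**Figure D2:**
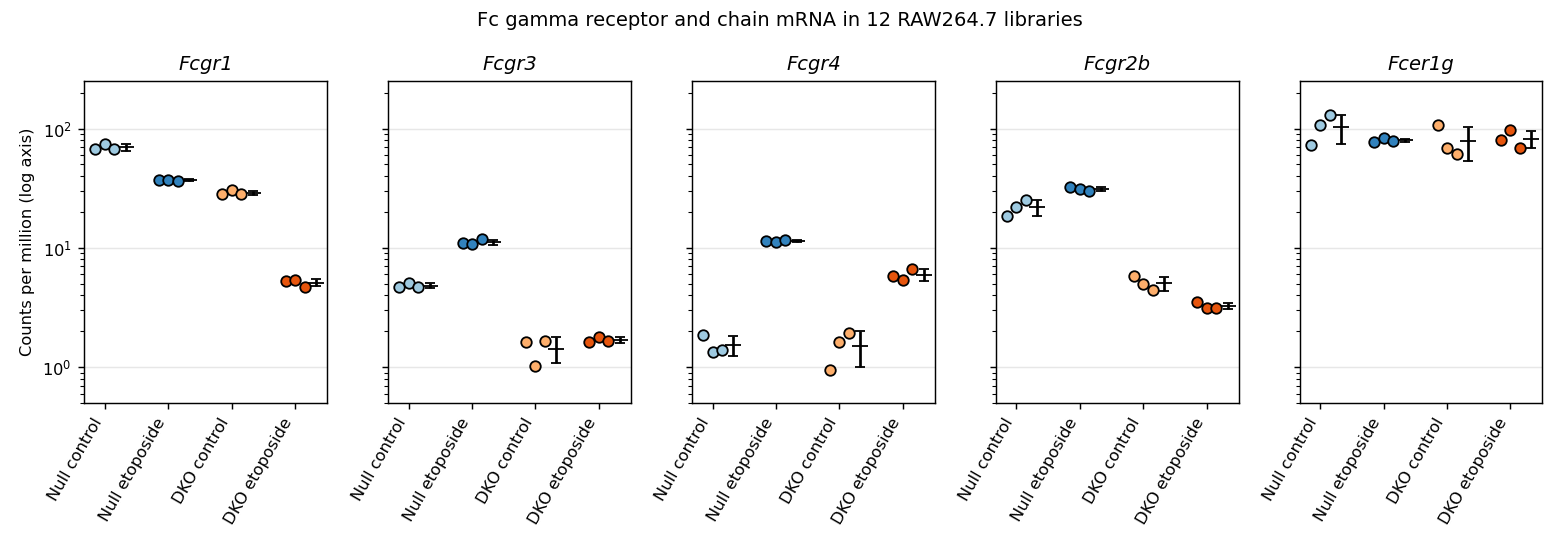
CPM on a log axis for each gene (panels), with 1 point per library, 3 per group, and the mean and SD as a bar to the right of each group. Fcgr1 falls with etoposide in both genotypes, Fcgr4 rises in both, and the groups of Fcer1g overlap.

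Fcgr3, a low-affinity activating receptor, was at 4.70, 5.07 and 4.72 CPM in Null control and 11.1, 10.7 and 11.8 CPM in Null etoposide libraries. It was at 1.63, 1.02 and 1.65 CPM in DKO control and 1.62, 1.80 and 1.66 CPM in DKO etoposide libraries, which rest on 54 to 103 counts each. All Null libraries stood above all DKO libraries, the Null groups did not overlap, and the DKO groups did. The rise with etoposide in Null cells, a log2 difference of 1.20 ± 0.16 (SE; limma, adjusted p = 9.61e-05), was not matched in DKO cells, where the difference was 0.26 with an interval of -0.10 to 0.62 (adjusted p = 0.242). The interaction was -0.94 (95% confidence interval -1.45 to -0.43, limma, adjusted p = 0.0230). That call was lost when any one of DKO control replicate 3, Null etoposide replicates 1, 2 or 3, or DKO etoposide replicates 1 or 3 was left out, with log2 differences of -0.97 to -0.83 and adjusted p from 0.0503 to 0.0713. Between genotypes the log2 difference was -1.74 in control cells (adjusted p = 7.29e-06) and -2.68 after etoposide (adjusted p = 8.38e-08, both limma).

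Fcgr4, an activating receptor of intermediate affinity, was the member with the largest rise. It was at 1.88, 1.33 and 1.40 CPM in Null control and at 0.958, 1.63 and 1.95 CPM in DKO control libraries, which rest on 51 to 91 counts each. After etoposide it was at 11.4, 11.3 and 11.7 CPM in Null and 5.76, 5.34 and 6.71 CPM in DKO cells. The control groups overlapped, both etoposide groups stood above both control groups, and Null etoposide stood above DKO etoposide. The log2 difference with etoposide was 2.87 ± 0.22 (SE) in Null cells (limma, adjusted p = 7.82e-07) and 1.98 ± 0.22 in DKO cells (adjusted p = 1.65e-05), while the interaction of -0.89 (95% confidence interval -1.57 to -0.20) was not called (limma, adjusted p = 0.113). Without DKO control replicate 1, the lowest Fcgr4 library, the interaction was -1.15 and was called (adjusted p = 0.00515). DKO cells had less Fcgr4 than Null cells after etoposide (-0.95, limma, adjusted p = 0.00544). In control cells the difference was -0.06 with an interval of -0.55 to 0.42 (limma, adjusted p = 0.897), and it was 0.21 without DKO control replicate 1 and 0.09 without Null control replicate 1.

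Fcgr2b, the inhibitory receptor, moved in opposite directions with etoposide in the 2 genotypes. It rose from 18.6, 22.0 and 25.4 CPM to 32.6, 31.3 and 30.1 CPM in Null cells (log2 difference 0.52 ± 0.13, SE; limma, adjusted p = 0.00610). In DKO cells it fell from 5.79, 5.03 and 4.42 CPM to 3.49, 3.17 and 3.12 CPM (log2 difference -0.62 ± 0.13, SE; limma, adjusted p = 0.00186). The 4 groups did not overlap, and the Null libraries stood above the DKO libraries. The interaction was -1.14 (95% confidence interval -1.53 to -0.75, limma, adjusted p = 0.00133). The differences between genotypes were the largest of the 5 genes, -2.10 in control cells (adjusted p = 1.32e-07) and -3.24 after etoposide (adjusted p = 1.41e-09, both limma).

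Fcer1g, the chain, was the most abundant of the 5 transcripts per length, at a mean of 90.0 to 118 RPKM in the 4 groups, and was called in none of the 5 comparisons. It was at 73.0, 107.0 and 128.6 CPM in the Null controls and 76.7, 82.6 and 79.1 CPM in Null cells given etoposide. It was at 106.9, 68.2 and 60.8 CPM in the DKO controls and 80.9, 96.4 and 68.9 CPM in DKO cells given etoposide. The 4 groups overlapped, and the spread within the control groups was wide, with SDs of 28.0 and 24.8 CPM. The log2 difference between genotypes after etoposide was 0.03 with a 95% confidence interval of -0.45 to 0.52 (limma, adjusted p = 0.929), so that a change within that range was not detectable. In control cells it was -0.39 (-0.88 to 0.09, adjusted p = 0.275), and without DKO control replicate 1, the highest DKO control library, it was -0.65 and was called (limma, adjusted p = 0.0299).

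Per kilobase of exon (RPKM, which is CPM divided by exon length in kilobases), where the receptors can be compared with each other, the summed level of the 4 receptors was 34.6 ± 1.66 in Null control and 35.3 ± 0.274 in Null etoposide cells (SD, n = 3), a difference within the SD of the first, and 14.1 ± 0.394 in DKO control and 8.24 ± 0.377 in DKO etoposide cells. The makeup of that sum differed between groups. Fcgr1 made up 77.4% of it in Null control and 79.4% in DKO control cells, and 40.5% in Null etoposide and 24.1% in DKO etoposide cells. Fcgr4 made up 3.56% and 8.48% in the Null and DKO controls, and 25.9% and 57.2% after etoposide, so that it was the leading receptor transcript of DKO etoposide cells at 4.73 RPKM, above Fcgr1 at 1.98, Fcgr3 at 0.975 and Fcgr2b at 0.563. In Null etoposide cells the order was Fcgr1 (14.3 RPKM), Fcgr4 (9.13), Fcgr3 (6.44) and Fcgr2b (5.41).

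**Figure D3:**
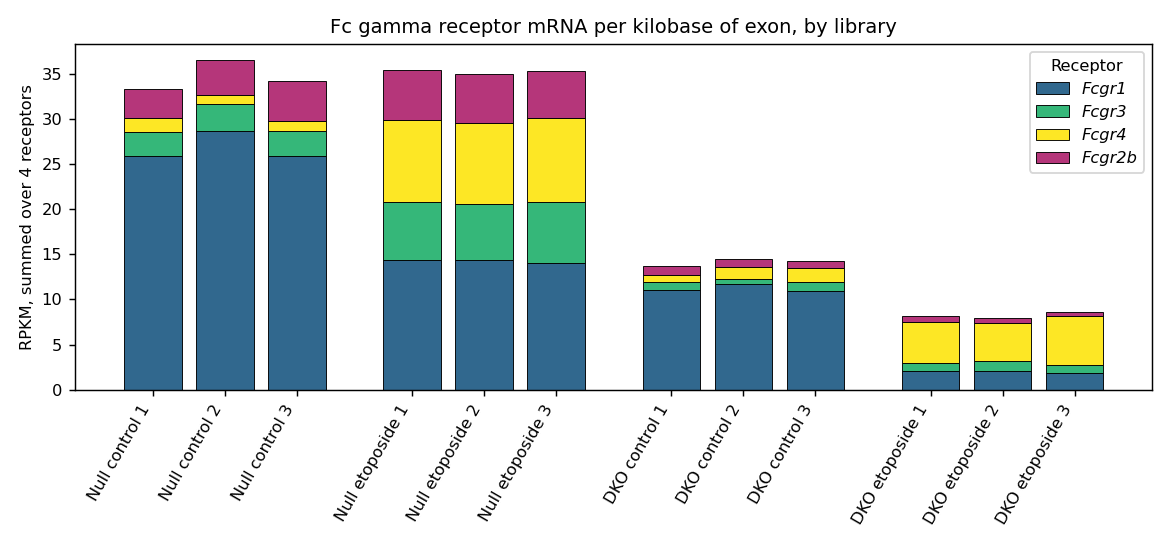
RPKM of the 4 receptors stacked for each of the 12 libraries. The stacks reach 33.3 to 36.5 RPKM in the Null libraries of both treatments, 13.7 to 14.5 in DKO control and 7.93 to 8.66 in DKO etoposide libraries, and Fcgr4 is the widest band in the last group.

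The activating receptors together stood above Fcgr2b in each group, by a mean of 8.24 times in Null control, 5.53 in Null etoposide, 15.4 in DKO control and 13.7 in DKO etoposide libraries, and the ranges of the 2 genotypes did not overlap (5.31 to 9.37 in Null and 12.5 to 17.7 in DKO libraries). Fcer1g exceeded the summed receptors by a mean of 3.39 times in Null control, 2.58 in Null etoposide, 6.40 in DKO control and 11.5 in DKO etoposide libraries. Within each library the ratio of Fcgr3 to Fcgr2b, an activating and an inhibitory receptor with closely similar outer domains, was 0.844, 0.767 and 0.620 in Null control and 1.13, 1.14 and 1.31 in Null etoposide cells. It was 0.942, 0.679 and 1.24 in DKO control and 1.55, 1.90 and 1.77 in DKO etoposide cells. The etoposide libraries stood above the controls of their genotype in both, by 0.69 and 0.90 on the log2 scale, yet with 3 libraries against 3 the two-sided exact permutation test cannot go below p = 0.1, which it gave for both and for DKO against Null after etoposide (0.54), all with adjusted p = 0.133. The control groups overlapped (0.33, exact permutation p = 0.4).

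Downstream of the receptors, Syk, the kinase that binds phosphorylated Fcer1g, was also lower in DKO cells. It was at 96.5, 83.8 and 82.2 CPM in Null control, 97.7, 100.0 and 97.3 in Null etoposide, 7.51, 10.2 and 10.8 in DKO control and 12.5, 11.7 and 12.7 in DKO etoposide libraries. The Null and DKO libraries did not overlap, with log2 differences of -3.21 in control cells (adjusted p = 2.00e-09) and -2.995 after etoposide (adjusted p = 1.63e-09, both limma), and the interaction of 0.21 was not called (adjusted p = 0.565). Of the 27 proximal kinases and adaptors tested, Syk was the 1 called lower after etoposide, and 11 were called higher, with a list median of 0.17 against -0.01 over all genes and 15.9% of all genes called higher and 17.8% lower.

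The Src family kinases Lyn and Fgr, which phosphorylate such chains, were called higher in DKO cells after etoposide. Lyn stood at 124.1, 62.9, 128.8 and 114.6 mean CPM in Null control, Null etoposide, DKO control and DKO etoposide cells, with an interaction of 0.81 (limma, adjusted p = 0.0403) that was lost, at adjusted p from 0.0698 to 0.101 and log2 differences of 0.67 to 0.85, when any one library other than Null control 1, DKO control 1 and DKO etoposide 3 was left out. Fgr was higher in DKO cells after etoposide (0.94, limma, adjusted p = 0.00200), and its interaction was 0.31 (adjusted p = 0.613). Prkcd, a protein kinase C that acts further down, had an interaction of 0.61 (limma, adjusted p = 0.00601).

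**Figure D4:**
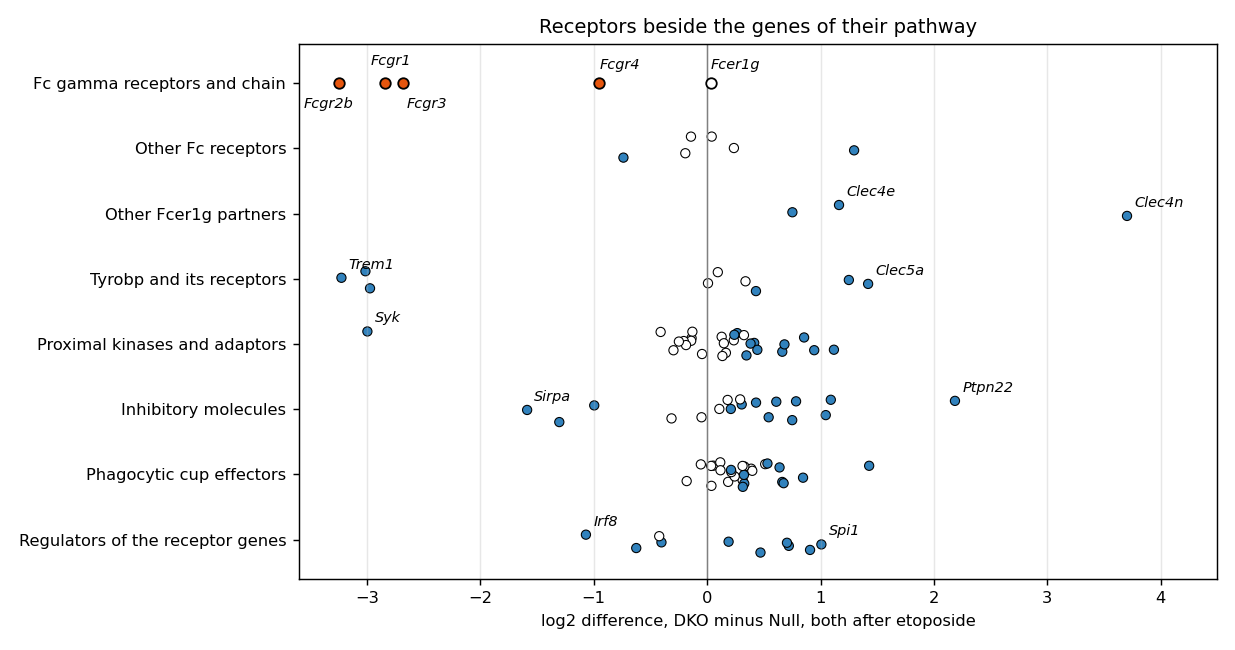
Log2 difference of DKO minus Null cells, both after etoposide (horizontal axis), for the 5 genes and the tested genes of 7 related lists (rows; vertical scatter within a row has no meaning); filled points have an adjusted p under 0.05. Fcgr1, Fcgr2b, Fcgr3 and Syk lie near -3, whereas the other proximal kinases and adaptors lie between -0.41 and 1.12.

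Among 18 inhibitory phosphatases, adaptors and receptors tested, 10 were called higher and 3 lower in DKO cells after etoposide (median 0.30), where 15.9% of all genes were called higher and 17.8%, close to the share of 3 in 18, lower. SHIP1, the phosphatase that Fcgr2b recruits, fell with etoposide in both genotypes: Inpp5d was at 304.0, 142.3, 245.6 and 164.6 mean CPM in Null control, Null etoposide, DKO control and DKO etoposide cells, and its fall was smaller in DKO cells (interaction 0.52, limma, adjusted p = 0.00460). The same held for Ptpn6, the tyrosine phosphatase SHP-1, at 589.4, 277.7, 500.1 and 375.1 mean CPM (interaction 0.67, limma, adjusted p = 0.00269). Ptpn22, a phosphatase of Src family kinases, was at 86.7, 78.1, 250.8 and 356.6 mean CPM in the same order and stood 2.19 higher on the log2 scale in DKO cells after etoposide (limma, adjusted p = 2.97e-08). Its interaction (0.67, limma, adjusted p = 0.0264) was lost without any one of Null control 1 or 2, Null etoposide 1, 2 or 3, or DKO etoposide 1 or 3 (0.61 to 0.71, adjusted p from 0.05003 to 0.0676). The receptor of CD47, Sirpa, was lower in DKO cells in both treatments, at 359.2, 202.8, 84.6 and 67.5 mean CPM (log2 difference after etoposide -1.59, limma, adjusted p = 2.48e-09, interaction 0.50). The interaction was also called for Pag1 (0.59) and Ubash3b (0.38), and for the inhibitory receptor Cd300a in the opposite direction (-0.53), 7 of the 18 genes in all, where 9.45% of all genes were called in the interaction.

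Of 26 molecules that build the phagocytic cup, 10 were called higher and 0 lower in DKO cells after etoposide by limma, with a median of 0.31, where 15.9% of all genes were called higher and 17.8% lower. The lower count was also 0 at an unadjusted p under 0.05 and 0 by edgeR and by DESeq2. Etoposide lowered Dock2 and Elmo1, whose products together activate Rac, by 1.90 and 2.09 on the log2 scale in Null cells and by 1.38 and 1.55 in DKO cells, with log2 interactions of 0.53 and 0.55 (limma, adjusted p = 0.00143 and 0.00170). Rac2, the blood cell Rac, was at 596.4, 485.4, 384.3 and 504.3 mean CPM in Null control, Null etoposide, DKO control and DKO etoposide cells. It was lower in DKO cells as controls (-0.63, limma, adjusted p = 1.43e-05), 1 of 3 cup genes called lower there with 8.39% of all genes, and its difference after etoposide was 0.06 (adjusted p = 0.561). Its interaction was 0.69 (adjusted p = 0.000359), and that of the phospholipase Pld2 was -0.63 (adjusted p = 0.00602, both limma).

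Other receptors that signal through Fcer1g were higher in DKO cells. Clec4e (Mincle), which senses fungal and mycobacterial glycolipids, was at 80.9, 129.8, 111.8 and 291.3 mean CPM in Null control, Null etoposide, DKO control and DKO etoposide cells, with a log2 difference of 1.16 after etoposide (adjusted p = 7.08e-07) and an interaction of 0.70 (adjusted p = 0.00353, both limma). Clec4d and Clec4n, the other lectins of the list that passed the filter, stood 0.75 and 3.70 higher after etoposide. Clec4d was at 107.2 mean CPM in Null etoposide and 180.6 in DKO etoposide cells, and Clec4n at a low 0.438 and 6.32. In this list 3 of 3 tested were called higher, where 15.9% of all genes were. Clec4d and Clec4n are named because their list is small, after their values were seen, as are the genes of the next sentence. Of 9 genes in the list of Tyrobp, a sister chain of Fcer1g, and its receptors, Tyrobp, Clec5a and Cd300lb were called higher and Trem1, Trem3 and Siglech lower after etoposide, 3 each way, with 15.9% of all genes called higher and 17.8% lower. Trem1, Trem3 and Siglech were low, at 6.86, 2.21 and 0.538 mean CPM in Null etoposide and 0.699, 0.238 and 0.0171 in DKO etoposide cells. Tyrobp was at 235.1, 199.9, 230.0 and 269.5 mean CPM, and its interaction was 0.46 (limma, adjusted p = 0.00566). The Clec5a interaction (0.35, limma, adjusted p = 0.0387) was lost without any one of Null control 2 or 3, DKO control 2, Null etoposide 1, 2 or 3, or DKO etoposide 2 or 3 (0.32 to 0.39, adjusted p from 0.0639 to 0.116).

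Of 6 other Fc receptors tested, 1 was called higher (Fcrlb) and 1 lower (Fcer2a) in DKO cells after etoposide, shares near the 15.9% and 17.8% of all genes. Both are named after their values were seen. Fcgrt, the neonatal Fc receptor that recycles IgG, rose with etoposide in both genotypes, from 2.99 to 8.53 mean CPM in Null and from 4.73 to 10.1 in DKO cells, and the log2 difference between genotypes after etoposide was 0.24 (limma, adjusted p = 0.171). Fcrl1, a receptor-like gene known from B cells, was at 17.2, 33.6, 39.2 and 30.5 mean CPM in Null control, Null etoposide, DKO control and DKO etoposide cells, and was the 1 gene of the 6 called in the interaction (-1.33, limma, adjusted p = 0.00154), where 9.45% of all genes were called.

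Of the 10 genes listed as regulators of the receptor genes, 6 were called higher and 3 lower in DKO cells after etoposide (median 0.33), against 15.9% higher and 17.8% lower over all genes. Spi1, which encodes PU.1, was at 220.6, 186.7, 324.8 and 375.4 mean CPM in Null control, Null etoposide, DKO control and DKO etoposide cells, 1.01 higher in DKO cells after etoposide on the log2 scale (limma, adjusted p = 7.16e-07). Its interaction (0.45, limma, adjusted p = 0.0221) was lost without Null control 2, Null etoposide 1 or 3, or DKO etoposide 1 (0.41 to 0.45, adjusted p from 0.0524 to 0.0705). Irf8, a partner of PU.1, ranked the groups as Fcgr1 did, at 68.2, 37.3, 51.1 and 17.8 mean CPM, except that DKO control stood above Null etoposide, with a log2 difference of -1.07 after etoposide (adjusted p = 2.82e-07) and an interaction of -0.65 (adjusted p = 0.00158, both limma). The interferon gamma receptor chain Ifngr2 was higher (0.70, limma, adjusted p = 1.23e-06). Its interaction (0.32, limma, adjusted p = 0.0286) was lost without Null control 2, DKO control 3, Null etoposide 2 or 3, or DKO etoposide 1 (0.30 to 0.32, adjusted p from 0.0597 to 0.0978).

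Most genes around the receptors on chromosome 1 did not pass the test. Of 30 tested genes within 250 kb of Fcgr2b, Fcgr3, Fcgr4 or Fcer1g, 5 were called higher (F11r, Fcrlb, Klhdc9, Atf6 and Nit1) and 2 lower (Gm38204 and Gm20045) after etoposide, with a median log2 difference of 0.08, where 33.6% of all genes were called in either direction. Gm38204 is the antisense gene inside Fcgr2b. If Fcgr2b reads were spread evenly over its exons, those over the shared bases would be enough to account for all Gm38204 counts. The counting of strand is not given in the sources used here. Around Fcgr1 on chromosome 3, 21 of 37 tested neighbours were called lower and 1 higher (Vps45), with a median of -1.07, where 17.8% of all genes were called lower. That region holds a cluster of replication-dependent histone genes: of 10 Hist2 genes tested, 8 were called lower (Hist2h2aa1, Hist2h2aa2, Hist2h2ac, Hist2h2bb, Hist2h3b, Hist2h3c1, Hist2h3c2 and Hist2h4, median of the 10 -1.52). The others called lower were Gm20628, Gm20632, Gm20633, Gm20634, Gm22614, Gm24830, Gm26232, Gm38227, Gm42743, Gm44492, Gm47313, Rnu1b1 and Terc, of which 7 share exon bases with Hist2 genes, so that reads of such genes cannot be told apart.

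**Figure D5:**
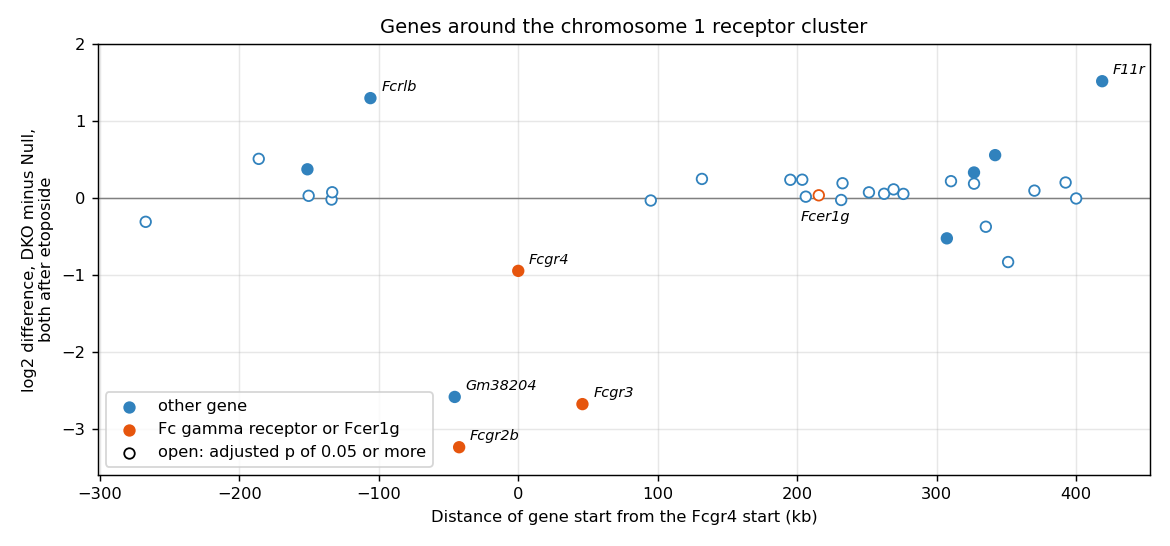
Log2 difference of DKO minus Null cells after etoposide for genes on chromosome 1 against the distance of their start from that of Fcgr4, in kb. The 3 receptors stand below 0 at -3.24, -2.68 and -0.95, Fcer1g lies at 0.03, and most other genes lie between -0.5 and 0.5.

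The genes whose pattern over the 12 libraries was most like that of each receptor, by the root mean square difference of log2 CPM after centring, were named without regard to function. For Fcgr1 they were Ang (0.250), Ifit2 (0.259) and Polq (0.282), of which Ang shares exons with Rnase4. If Rnase4 reads were spread evenly over its exons, those on the shared bases would equal 73.7% of Ang counts. Those for Fcgr2b were Hk3 (0.170), Rasgef1b (0.269) and Car13 (0.308). Hk3, a hexokinase of myeloid cells, was at 19.6, 25.5, 4.37 and 3.21 mean CPM in Null control, Null etoposide, DKO control and DKO etoposide cells, beside 22.0, 31.3, 5.08 and 3.26 for Fcgr2b. Fcgr3 was matched by Cldn19 (0.251), the transcription factor gene Irf4 (0.279) and Slfn5os (0.292), which overlaps Slfn5 on the other strand. Cldn19 and Slfn5os were low, at 0.692, 1.80, 0.127 and 0.192 mean CPM and at 0.221, 0.498, 0.0188 and 0.0527 in the same order of groups. If Slfn5 reads were spread evenly over its exons, those on the shared bases would be enough to account for all Slfn5os counts. Fcgr4 was matched by D630023F18Rik (0.181), Gm28845 (0.223) and Mettl27 (0.223), of which the first 2 overlap on the same strand. For Fcer1g they were Mrpl23 (0.0805), Iscu (0.0813) and 1700021F05Rik (0.0814). Among the 5 genes, Fcgr2b and Fcgr3 were the closest pair (0.502, with r = 0.93 over the 12 libraries, which share the group differences), and Fcgr1 and Fcgr4 the farthest apart (2.22).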

How the data were processed

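RNA of 12 libraries was sequenced as strand-specific, ribosome-depleted pairs of 75-base reads. Cutadapt and HISAT2 are named by the study for trimming and alignment. HTSeq in the study's methods, and featureCounts and mm10 in the submitters' processing notes, are named for the counting, and the strand setting and annotation release are not given in the sources used here. The authors deposited 1 table of raw counts per gene, without normalisation. Symbols and positions came from GENCODE M21 by gene ID (32501 of 32688 matched).

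Counts were scaled by TMM factors (0.939 to 1.03), filtered with filterByExpr (18066 genes, 99.96% of counts) and tested as log2 CPM with a prior count of 3 by limma-trend with robust variances, all 12 libraries in 1 model, with Benjamini-Hochberg adjustment and a threshold of 0.05 (R 4.3.3, edgeR 4.0.16, limma 3.58.1). CPM was computed from TMM-scaled library sizes, RPKM by union exon length. Ratios were compared by exact permutation tests over libraries (Python 3.11.15). The test was checked on simulated counts. Replicate numbers did not pair the libraries.

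The 5 genes, the gene lists and the motif letters were chosen with earlier results of these data known, the motif letters after the promoters were read. From each list the text names every gene called in the interaction, or else the 3 largest differences after etoposide, and always Syk, Fgr, Lyn, Inpp5d, Ptpn6, Tyrobp, Fcgrt, Spi1, Irf8, Tfeb and Tfe3, the 3 genes most like each member, and the neighbours within 250 kb called after etoposide, except for items that are not reported here. Alternatives tried were edgeR's quasi-likelihood test, DESeq2 1.42.0 and its size factors, library size alone, other filters, a prior count of 0.5, a replicate block, fits of the compared groups alone and leaving out each library.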

Additional observations from a re-analysis of the deposited data

Results flagged for a closer look

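The response to etoposide differed between the genotypes, by a test of the difference itself (limma interaction, Benjamini-Hochberg adjusted over 18066 genes), for 3 of the 5 genes. Over all genes tested, 9.45% were called in this interaction, and 6.39% were called in the direction of these 3, lower in DKO cells. The log2 difference between the DKO and the Null response was -1.59 for Fcgr1, which fell in both genotypes, -1.14 for Fcgr2b, which rose in Null and fell in DKO cells, and -0.94 for Fcgr3, which rose in Null cells and was not called in DKO cells. The Fcgr3 call was lost when any one of DKO control replicate 3, Null etoposide replicates 1, 2 or 3, or DKO etoposide replicates 1 or 3 was left out (adjusted p from 0.0503 to 0.0713), and with a replicate block (adjusted p = 0.0504).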

How the results depend on the processing

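Over the alternatives, the direction and call of the 5 genes' differences were kept in 384 results and not in 16, the counts of genes called stayed within 1.5 times in 79 of 80, and the difference in the ratio of Fcgr3 to Fcgr2b kept its direction in 24 of 24, with no call possible at this number of libraries. DESeq2 called the Fcgr4 interaction (-0.91, adjusted p = 0.0266). With library size alone, the difference of Fcer1g between genotypes after etoposide turned to -0.0088. In a fit of the compared groups alone, 2031 genes were called between control cells against 3490. Without DKO control replicate 1, 4721 genes were called between control cells. Replicate numbers did not pair the libraries, whose deviations correlated at -0.54 to 0.39 between same-numbered libraries, with 0 of 12 closest to its own number. With a replicate block the Fcgr3 interaction was -0.94 and was not called (adjusted p = 0.0504), and the other members kept their calls, while the interaction calls of Lyn (0.0921), Ptpn22 (0.0585), Clec5a (0.0680) and Ifngr2 (0.0595) were lost at these adjusted p. Leaving out 1 library gave ranges of -0.27 to 0.21 for Fcgr4 and -0.65 to -0.21 for Fcer1g between control cells, -0.072 to 0.34 for Fcer1g with etoposide in DKO cells, -0.084 to 0.16 for Fcer1g between genotypes after etoposide, and -1.15 to -0.68 for Fcgr4 and -1.14 to -0.81 for Fcgr3 in the interaction; the cause was not tested. Of 62 called differences of named genes outside the 5, 13 lost the call under some alternative and 0 reversed; Inpp5d and Prkcd after etoposide did so under 8 and 9 of 15. Control libraries with 51 to 91 counts limit Fcgr4, and the spread of the control libraries limits Fcer1g.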
